A study of Mus musculus with 12 samples.

Results

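Accessible domains were examined at 10 genes that encode transcription factors of the primitive streak, mesoderm and endoderm, namely Foxa1, Foxa2, Gata4, Gata6, Sox17, Eomes, Mixl1, Gsc, Tbx6 and Mesp1. The genes were taken by name, 10 of 21938 protein-coding genes of GENCODE M21 on GRCm38 (mm10). A domain was assigned to a gene when it overlapped the 1 kb to either side of a protein-coding transcription start site (TSS) of that gene, called its promoter here, or overlapped the gene body, or had its centre nearest to a TSS of that gene. No domain was shared between the 10 genes. ATAC-seq, which marks DNA that a transposase can reach, was performed while mouse embryonic stem cells, grown as embryoid bodies (EBs), became motor neurons, in 12 samples that form 6 groups of 2. EBs of the line Ainv15(iCre) were sampled before patterning, and progenitors of the same line after 2 days in 1 µM retinoic acid (RA) and 0.5 µM of the smoothened agonist SAG. All day 4 groups had 4 days of RA and SAG. iHoxc6, iHoxc9 and iHoxc10, of the lines Ainv15(iFlag.Hoxc6), Ainv15(iFlag.Hoxc9) and Ainv15(iFlag.Hoxc10), received 3 µg/mL doxycycline (Dox) for the 48 h from day 2, which switched on a Flag-tagged Hox transgene. The no Dox control was of the line Ainv15(iFlag.Hoxc6) and received none. Per the study's methods, the transgene was a single copy placed at the Hprt locus by cassette exchange. Each Hox factor was represented by a single line, and the whole culture was assayed, neurons and other cells together.

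Eomes, Mixl1 and Gsc are known from the primitive streak and the organizer of the gastrula, where mesoderm and endoderm arise. Tbx6 and Mesp1 mark the mesoderm that leaves the streak, and Sox17, Gata4, Gata6, Foxa1 and Foxa2 act in endoderm. Foxa2 also has a role in the neural tube, since Hedgehog signalling, which SAG turns on, induces it in the floor plate. Regulatory genes of this kind often have CpG-rich promoters and many distal elements, and an open element can precede expression or accompany repression, so that a domain is no measure of transcription.

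The authors deposited 1 domain list per group, made from both samples, so no value has a replicate error and no difference could be set against the spread between samples. Read depth is unknown. The lists held 56232 (iHoxc10) to 94875 (EB) domains and covered 17.8 (iHoxc9) to 29.7 Mb (no Dox). The no Dox list carried additional columns and a file label of another day, and belonged to a later set of sample records, so sequencing and domain calling cannot be told apart from the absence of Dox. Its line was that of iHoxc6, and differed from the lines of iHoxc9, iHoxc10 and progenitors, so that line and group cannot be told apart in comparisons with these. Fewer open cells and less opening per cell cannot be told apart in such bulk samples either. Among 6 genes of pluripotent cells, 5 had a promoter domain in EBs, 3 in progenitors and 2 in each day 4 list. Pou5f1 and Nanog had one in EBs only, Zfp42 in EBs and progenitors, Klf4 and Esrrb in all 6 lists and Dppa3 in none. All 8 genes of motor neurons and their progenitors had one in every list. Of all protein-coding genes, 62.5% (iHoxc10) to 69.1% (EBs) had a promoter domain in a list, and 59.7% had one in all 6.

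Promoters of the mesoderm and endoderm factors were open in nearly every list. All 10 genes had a promoter domain in EBs, progenitors, no Dox and iHoxc6, where 69.1%, 66.5%, 65.4% and 65.7% of all protein-coding genes had one. In iHoxc9 and in iHoxc10, 9 of 10 had one, beside 62.9% and 62.5% of all genes. Mixl1 was the gene without. Held in all 6 lists were the promoters of 9 of the 10 genes, against 59.7% of all genes. A promoter domain in no Dox that was absent from both iHoxc9 and iHoxc10 was found for 1 of 10, Mixl1, and for 557 genes or 2.54% of all. Some of these domains were narrow. With domains of at least 50 bp, the number of genes was 10 in EBs, 9 in progenitors, 10 without Dox, and 9, 7 and 8 with Hoxc6, Hoxc9 and Hoxc10, beside 66.9%, 64.4%, 63.6%, 63.4%, 60.4% and 61.5% of all genes. Held by all 6 lists were then 7 of 10, without Mixl1, Gata4 and Mesp1, against 58.0% of all genes.

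Most of the genes had a CpG-rich start. For each gene the TSS with the highest observed to expected CpG ratio was taken, which need not be the TSS with a domain. Within 500 bp of it, 8 of 10 had a ratio of at least 0.6 with at least 50% GC, against 49.8% of all genes. Ratios ran from 0.646 (Gata6) to 0.933 (Gsc) among these 8, while Tbx6 had 0.330 and Mesp1 0.411, beside a median of 0.614 over all genes. CpG-rich genes held a promoter domain in all 6 lists in 95.0% of cases and other genes in 24.6%. Among the factors it was 7 of the 8 CpG-rich genes and both of the others. Loss of the promoter domain in both iHoxc9 and iHoxc10 relative to no Dox was rare among CpG-rich genes, at 0.823%, and Mixl1 was among them. Of the other genes, 4.24% showed that loss, and neither Tbx6 nor Mesp1 did. Both percentages are of all genes of that kind, including genes with no promoter domain in no Dox to lose. They are no rates of loss among open promoters.

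Counting all domains, at promoters and elsewhere, the factors had a higher median number than all genes, although Mixl1 had 0 to 2 and Tbx6 1 or 2. The median number per gene was 9 in EBs and in progenitors, 7.5 without Dox, and 8, 4 and 4.5 with Hoxc6, Hoxc9 and Hoxc10, where all protein-coding genes had a median of 3 in EBs and 2 in each other list. Summed over the 10 genes, the lists held 112, 122, 98, 108, 68 and 63 domains, in the order EB, progenitors, no Dox, iHoxc6, iHoxc9, iHoxc10. They covered 26465, 28849, 31078, 25158, 16226 and 15194 bp in that order. Set against the whole list, that was 1148 bp per Mb covered in EBs, 1122 in progenitors, 1045 without Dox, then 1016 (iHoxc6), 913 (iHoxc9) and 755 (iHoxc10). The share of the covered length that lay at these genes was thus lowest in iHoxc10, while their share of all domains stayed between 10.7 and 13.9 per 10000. Much of the length was far from the genes, and when non-coding genes could also claim a domain as nearest, 14801 bp remained in EBs and 6065 bp in iHoxc10.

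The genes differed in the size of their neighbourhoods. The stretch from which domains were assigned was 516 kb for Foxa2, 418 kb for Gata6 and 6.21 kb for Tbx6. Per kb of that stretch, the median of the 10 genes was 18.1 bp in EBs, 15.3 in progenitors, 16.6 without Dox, and 13.2, 8.83 and 8.77 with Hoxc6, Hoxc9 and Hoxc10. The medians of all genes were 11.9, 12.1, 13.4, 11.2, 7.49 and 8.82 bp per kb in the same order, so that the factors exceeded them in EBs and lay beside them in iHoxc10. On this scale Gata6 was sparse, at 3.35 to 5.45 bp per kb, and Tbx6 was dense, at 80.5 to 146 bp per kb.

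**Figure D1:**
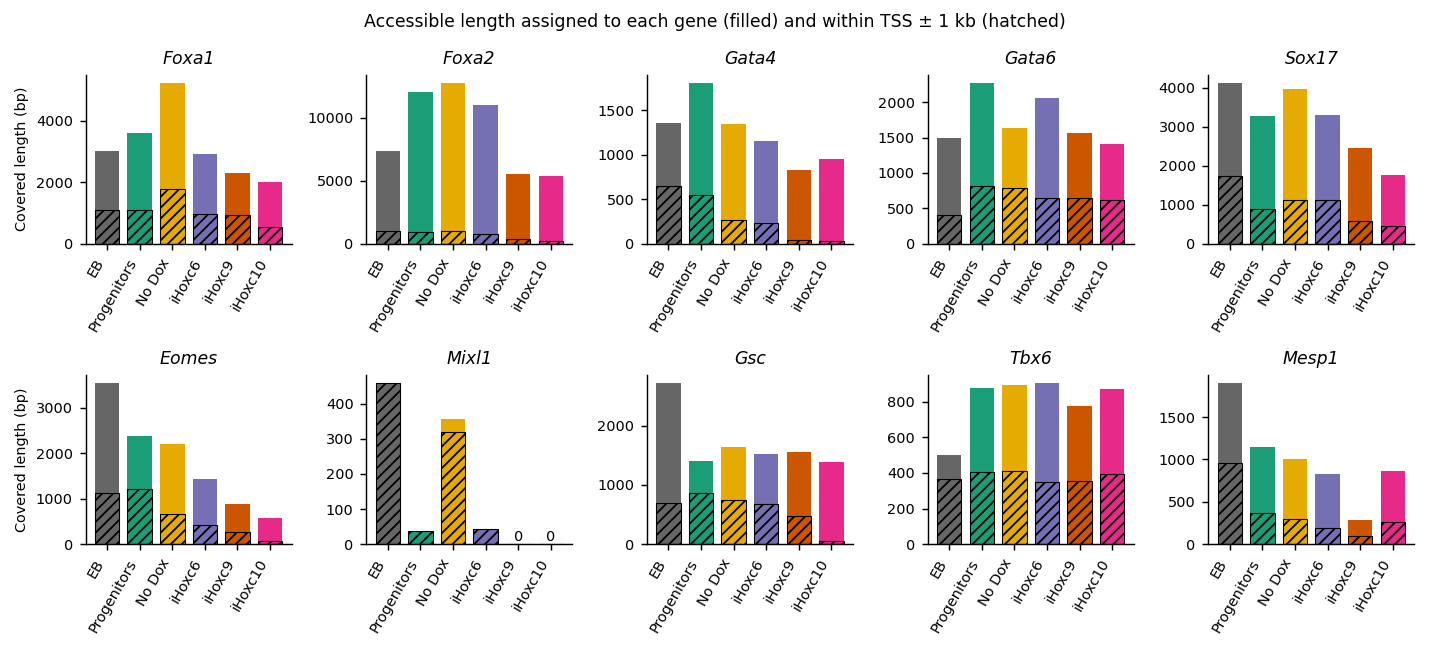
Covered length in bp (y axis, a separate scale for each gene, starting at 0) of each of the 10 genes in the 6 lists (x axis). Filled bars give all domains of the gene and hatched bars the part within 1 kb of a TSS; there is 1 value per list and no error. Foxa2 is highest without Dox, at 12782 bp, and Mixl1 is at 0 bp in iHoxc9 and iHoxc10.

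Foxa2, a forkhead factor of endoderm, node and floor plate that can bind nucleosomal DNA, had the most domains of the 10 genes. It lies on chromosome 2, at 148042877 to 148046969 on the minus strand. It had 35 domains in EBs, 46 in progenitors, 37 without Dox, and 49, 29 and 24 with Hoxc6, Hoxc9 and Hoxc10. The domains covered 7327 bp in EBs, 12051 bp in progenitors, 12782 bp in no Dox, 10994 bp in iHoxc6, 5564 bp in iHoxc9 and 5391 bp in iHoxc10. Coverage was thus highest in progenitors and no Dox and lowest under Hoxc9 and Hoxc10. At its promoter the domains covered 972, 918, 1012, 734, 413 and 256 bp, in the same order of lists.

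When overlapping domains of the 6 lists were merged into regions, Foxa2 had 88 of the 240 regions of the 10 genes. Of these 88, all 6 lists held 12, beside 11.2% of all regions, and EBs only held 13, beside 21.1%. Progenitors and every day 4 list but not EBs held 4, beside 2.77%. The widest of these 4 was 1728 bp wide and had its centre 169 kb downstream of a Foxa2 TSS, in no annotated gene. It held 0 bp in EBs, 1311 bp in progenitors, 1484 bp in no Dox, 1511 bp in iHoxc6, 1343 bp in iHoxc9 and 1118 bp in iHoxc10. The region was therefore absent before patterning and kept most of its length in iHoxc9 and iHoxc10, where the summed coverage of the gene was lowest. The other 3 lay 22.5, 160 and 215 kb downstream and were 560, 637 and 638 bp wide. The opposite was seen 6.28 kb upstream, where a 993 bp region in an exon of Gm27420 held 972 bp in EBs, 32 bp in progenitors and none at day 4. A 740 bp region 44.9 kb upstream held 740 bp without Dox and 69 bp in iHoxc6, and no other list held it.

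A pair of Foxa2 regions is shown by sequence, on the plus strand of GRCm38 and with CpG dinucleotides in capitals, because they are the widest regions of their class at the 10 genes. The central 300 bases of the 1728 bp region, chr2:147876751-147877050, hold 9 CpG and 48.3% GC.
Foxa2 distal region opened by day 2: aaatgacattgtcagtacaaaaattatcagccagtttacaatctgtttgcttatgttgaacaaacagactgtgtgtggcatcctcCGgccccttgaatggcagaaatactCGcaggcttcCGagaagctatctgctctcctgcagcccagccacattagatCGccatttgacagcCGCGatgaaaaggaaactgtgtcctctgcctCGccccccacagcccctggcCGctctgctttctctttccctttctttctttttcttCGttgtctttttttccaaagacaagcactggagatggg
The second is a 317 bp region in an intron of 9030622O22Rik, 6.38 kb downstream of a Foxa2 TSS, which held 317 bp in iHoxc6 and 46 bp in EBs and was absent from progenitors, no Dox, iHoxc9 and iHoxc10. Its central 300 bases, chr2:148039413-148039712, hold 15 CpG and 56.7% GC.
Foxa2 region of iHoxc6 and EBs: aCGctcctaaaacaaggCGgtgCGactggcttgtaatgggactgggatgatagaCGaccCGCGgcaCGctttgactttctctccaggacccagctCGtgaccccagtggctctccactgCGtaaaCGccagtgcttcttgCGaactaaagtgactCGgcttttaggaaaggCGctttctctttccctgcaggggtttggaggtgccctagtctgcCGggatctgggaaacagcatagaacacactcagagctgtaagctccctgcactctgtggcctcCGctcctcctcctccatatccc

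Foxa1, the forkhead paralogue with overlapping roles in endoderm, lies on chromosome 12, at 57540628 to 57546916 on the minus strand. Its domains covered 3016 bp in EBs, 3589 bp in progenitors, 5241 bp in no Dox, 2904 bp in iHoxc6, 2292 bp in iHoxc9 and 1996 bp in iHoxc10. The no Dox list stood above the other 5, and its widest domain, 1844 bp over the promoter, compared with 512 to 1124 bp of the same region in the others. A region 845 bp wide, 109 kb downstream in an intron of Mipol1, held 0 bp in EBs, 430 bp in progenitors, 845 bp in no Dox, 634 bp in iHoxc6, 612 bp in iHoxc9 and 595 bp in iHoxc10. It was the sole Foxa1 region of the class found in progenitors and all day 4 lists but not in EBs. An exonic region of Foxa1, 707 bp wide and 3.62 kb downstream of the TSS, held 707 bp in EBs, 59 bp in progenitors, 189 bp in no Dox, 52 bp in iHoxc6 and none in iHoxc9 or iHoxc10.

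Sox17, a high mobility group factor of definitive endoderm and endothelium, lies on chromosome 1, at 4490931 to 4497354 on the minus strand, and had 7 TSS. At the 6 upstream TSS, between 4496330 and 4497354, each of EBs, progenitors, no Dox and iHoxc6 had a domain, and neither iHoxc9 nor iHoxc10 had any. A 545 bp region that contains the TSS at 4496757 held 545 bp in EBs, 67 bp in progenitors, 45 bp in no Dox and none in the 3 induced lists. In iHoxc6 the domain near these starts was 62 bp wide. The internal TSS at 4493735 kept a domain in all 6 lists, so Sox17 counted as open in iHoxc9 and iHoxc10 through this start alone. It belonged to a 2182 bp region over exons of Sox17 that held 2161 bp in EBs, 1757 bp in progenitors, 1945 bp in no Dox, 1946 bp in iHoxc6, 1349 bp in iHoxc9 and 948 bp in iHoxc10. A region 1089 bp wide, 74.4 kb upstream, was likewise held by all 6 lists, with 764 to 1078 bp. All domains of Sox17 together covered 4138, 3284, 3977, 3299, 2463 and 1757 bp. The 2182 bp region was the widest that all 6 lists held at the 10 genes, and 220 bases from its centre, free of untranslated sequence, are shown. They lie at chr1:4492664-4492883 and hold 11 CpG and 57.7% GC.
Sox17 intragenic region in all lists: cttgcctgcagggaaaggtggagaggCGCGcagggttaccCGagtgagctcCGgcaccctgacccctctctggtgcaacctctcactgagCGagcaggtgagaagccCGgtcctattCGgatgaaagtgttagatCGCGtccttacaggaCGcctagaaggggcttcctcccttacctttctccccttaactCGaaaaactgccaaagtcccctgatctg

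Gata4 and Gata6 encode zinc-finger factors of extraembryonic and definitive endoderm and of the heart. Gata4, on chromosome 14 from 63198922 to 63271692 on the minus strand, had 5 TSS. Its most upstream pair, 63271692 and 63271124, had no domain within 1 kb in any list. Its promoter domain in all 6 lists lay at the internal pair 63245271 and 63245248. There the region held 592 bp in EBs, 550 bp in progenitors, 271 bp in no Dox, 226 bp in iHoxc6, 42 bp in iHoxc9 and 32 bp in iHoxc10. The promoter thus counted as open in iHoxc9 and iHoxc10 on domains under 50 bp. A 570 bp intronic region 10.6 kb upstream of that pair differed little, with 468, 568, 467, 473, 448 and 511 bp in the same order. All domains of Gata4 together covered 1359, 1814, 1348, 1155, 833 and 957 bp.

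Gata6, on chromosome 18 from 11052064 to 11085635 on the plus strand, held an 852 bp region over its TSS at 11052470 in all 6 lists. The region had 386 bp in EBs, 817 bp in progenitors, 790 bp in no Dox, 621 bp in iHoxc6, 648 bp in iHoxc9 and 616 bp in iHoxc10. It was narrowest in EBs, unlike the promoter of Gata4, which was widest there. A 1120 bp region 1.54 kb downstream, over exons of Gata6 and reaching into its promoter, was also held by all 6 lists. That region was widest in EBs, with 734, 442, 94, 382, 213 and 357 bp in the same order. All domains of the gene covered 1492, 2276, 1640, 2063, 1571 and 1402 bp. Of its 25 regions, 8 were held by an induced list but neither by progenitors nor by no Dox, beside 22.6% of all regions. Among these 8 were regions of 32, 33, 34, 44 and 46 bp. The widest of them, 308 bp and 216 kb downstream, held 308 bp in iHoxc9 and 24 bp in iHoxc10.

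**Figure D2:**
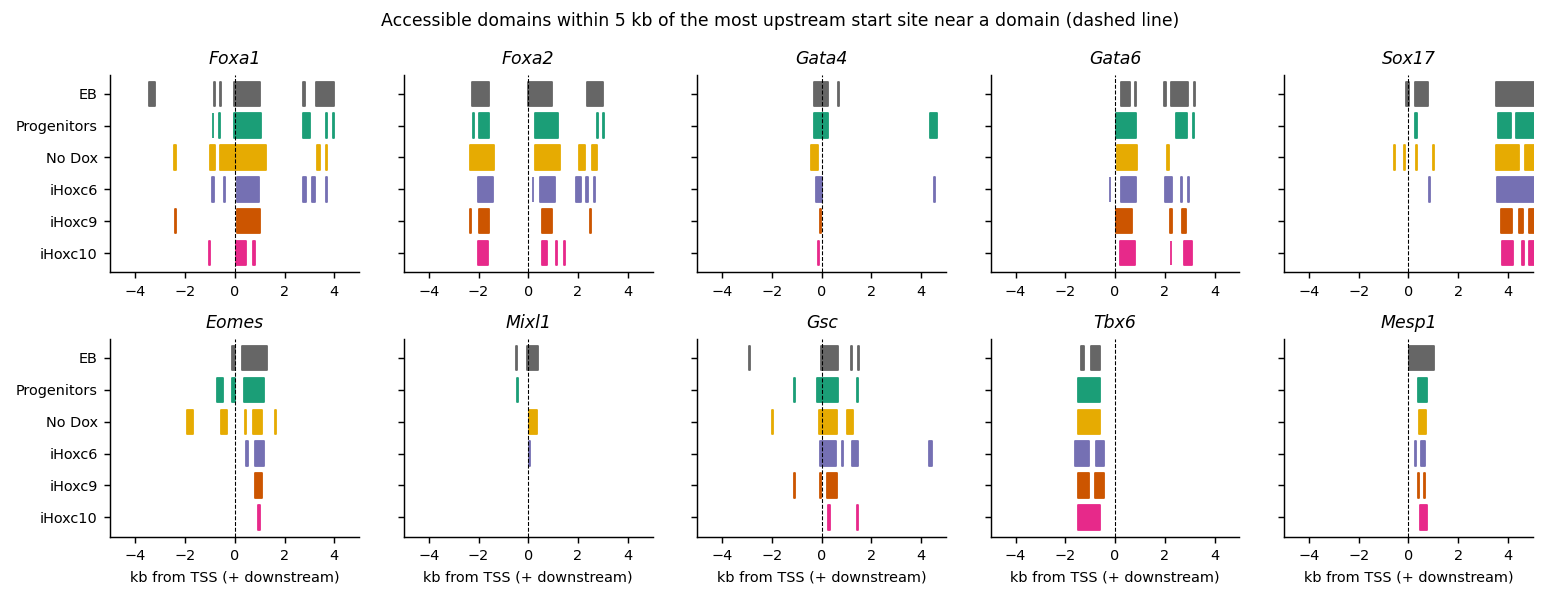
Domains of the 6 lists (rows) by distance in kb from a TSS (x axis, positive values downstream) for the 10 genes. The dashed line is the most upstream TSS that had a domain within 1 kb in any list, which for Gata4 is an internal TSS; each block is 1 domain and narrow domains are drawn at a minimum width. Mixl1 is empty in iHoxc9 and iHoxc10, Sox17 has no domain at its upstream starts in these lists, and the Tbx6 domains end before the TSS.

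Eomes, a T-box factor that starts the mesendoderm programme in the streak, lies on chromosome 9, at 118478212 to 118486132 on the plus strand. Its domains covered 3549 bp in EBs, 2371 bp in progenitors, 2197 bp in no Dox, 1443 bp in iHoxc6, 891 bp in iHoxc9 and 580 bp in iHoxc10. Within the promoter they covered 1130, 1203, 666, 419, 270 and 59 bp in the same order. Both measures were highest in EBs or progenitors and lowest in iHoxc10. The 1006 bp region that contains the TSS at 118478861 was held by all 6 lists, with 1006 bp in EBs and 59 bp in iHoxc10. Upstream of it, a 431 bp region that ended 302 bp upstream of the TSS was held by progenitors with 268 bp and no Dox with 247 bp, and by no other list. Distal regions followed different orders. A 434 bp region 71.9 kb upstream, in an exon of Platr11, held 434 bp in EBs, 177 bp in progenitors, 173 bp in no Dox and none in the induced lists. A 526 bp region 137 kb upstream held 526 bp in EBs, 42 bp in progenitors, 0 bp in no Dox, 501 bp in iHoxc6, 279 bp in iHoxc9 and 329 bp in iHoxc10. The central 300 bases of the 431 bp promoter region, chr9:118477545-118477844, are shown because progenitors and no Dox alone held it, and they hold 13 CpG and 55.3% GC.
Eomes upstream promoter region: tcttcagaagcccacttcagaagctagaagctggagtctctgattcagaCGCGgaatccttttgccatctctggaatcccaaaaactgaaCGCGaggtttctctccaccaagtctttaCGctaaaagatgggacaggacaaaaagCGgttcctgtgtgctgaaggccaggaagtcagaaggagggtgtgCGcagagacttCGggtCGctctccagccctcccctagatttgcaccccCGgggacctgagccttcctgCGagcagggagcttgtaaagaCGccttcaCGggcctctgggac

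Mixl1, a paired-like homeodomain factor of the streak, lies on chromosome 1, at 180693043 to 180697034 on the minus strand. It was the gene with the least accessible length. Its domains covered 460 bp in EBs, 36 bp in progenitors, 358 bp in no Dox, 44 bp in iHoxc6 and 0 bp in iHoxc9 and iHoxc10. EBs and no Dox were high, progenitors and iHoxc6 rested on a single domain under 50 bp each, and the other 2 lists had none. The 415 bp region over the TSS held 415 bp in EBs, 320 bp in no Dox and 44 bp in iHoxc6. The 36 bp domain of progenitors lay elsewhere, in a 63 bp region 0.450 kb upstream that it shared with EBs, so that progenitors had no domain over the TSS. The same presence over the 6 lists, with a promoter domain in the other 4 and none in iHoxc9 and iHoxc10, was found in 144 genes or 0.656% of all. The central 300 bases of the promoter region, chr1:180696717-180697016, are shown as the start without a domain in progenitors, iHoxc9 and iHoxc10. They hold 34 CpG and 72.3% GC.
Mixl1 promoter region: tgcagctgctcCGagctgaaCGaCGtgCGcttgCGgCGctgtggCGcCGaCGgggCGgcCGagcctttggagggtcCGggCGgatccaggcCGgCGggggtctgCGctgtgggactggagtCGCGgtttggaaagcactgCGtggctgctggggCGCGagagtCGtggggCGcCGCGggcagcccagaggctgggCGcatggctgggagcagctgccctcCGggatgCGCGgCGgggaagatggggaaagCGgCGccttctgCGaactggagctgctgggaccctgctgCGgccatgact

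Gsc, a homeodomain factor of the gastrula organizer, lies on chromosome 12, at 104471209 to 104473330 on the minus strand. Its domains covered 2721 bp in EBs, 1400 bp in progenitors, 1632 bp in no Dox, 1516 bp in iHoxc6, 1557 bp in iHoxc9 and 1377 bp in iHoxc10. EBs were high and the other 5 lists lay between 1377 and 1632 bp. The 857 bp promoter region held 690, 857, 741, 632, 472 and 54 bp in the same order, so that the total in iHoxc10 came mostly from elsewhere. There, an 842 bp region 120 kb upstream held 842 bp in iHoxc10, 391 bp in iHoxc9, 248 bp in iHoxc6 and 228 bp in no Dox, and was absent from EBs and progenitors. Of the 25 regions of Gsc, 9 were held by EBs only, beside 21.1% of all regions, and 3 of the 9 were 344, 376 and 410 bp wide. The 410 bp region, 125 kb upstream in no annotated gene, was the widest region of EBs only at the 10 genes, and its central 300 bases, chr12:104598069-104598368, hold 1 CpG and 52.3% GC. It is shown beside the promoter of Mixl1 for the contrast in CpG content.
Gsc distal region of EBs only: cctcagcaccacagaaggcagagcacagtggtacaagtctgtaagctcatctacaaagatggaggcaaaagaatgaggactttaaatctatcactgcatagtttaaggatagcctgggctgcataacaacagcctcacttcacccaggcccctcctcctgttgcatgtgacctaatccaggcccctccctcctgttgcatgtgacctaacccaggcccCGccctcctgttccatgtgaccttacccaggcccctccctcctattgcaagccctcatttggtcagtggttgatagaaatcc

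**Figure D3:**
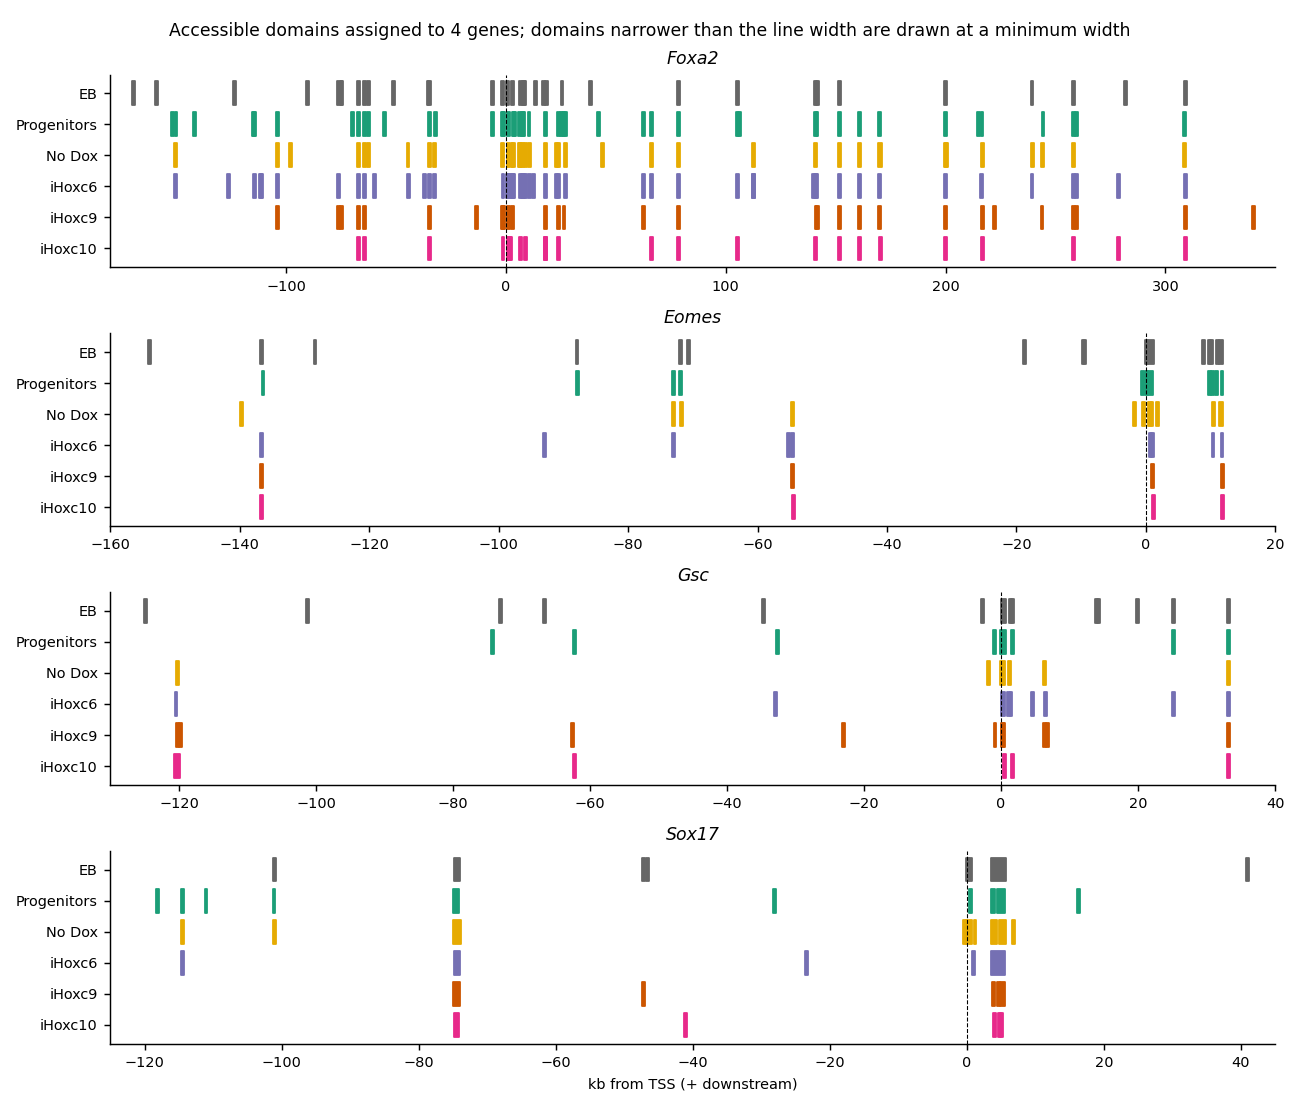
Domains of the 6 lists (rows) at Foxa2, Eomes, Gsc and Sox17 by distance in kb from the most upstream TSS near a domain (x axis, positive values downstream; dashed line at 0), each block being 1 domain. Foxa2 has blocks that begin about 160, 169 and 216 kb downstream of this TSS in progenitors and every day 4 list but not in EBs. Gsc has blocks 120 kb upstream in the 4 day 4 lists.

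Tbx6, a T-box factor of presomitic mesoderm, lies on chromosome 7, at 126781483 to 126785560 on the plus strand. It had a single region, 1189 bp wide and held by all 6 lists, with 500 bp in EBs, 877 bp in progenitors, 893 bp in no Dox, 907 bp in iHoxc6, 775 bp in iHoxc9 and 873 bp in iHoxc10. EBs were low and the other lists were alike. This region ended 433 bp upstream of the Tbx6 TSS and overlapped an exon of Ypel3, and the TSS of Tbx6 itself lay in no domain of any list. Tbx6 was counted as open through this domain, and to which of both genes it belongs was not tested.

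Mesp1, a basic helix-loop-helix factor of cardiac mesoderm, lies on chromosome 7, at 79792241 to 79793788 on the minus strand. Its domains covered 1903 bp in EBs, 1151 bp in progenitors, 1010 bp in no Dox, 833 bp in iHoxc6, 280 bp in iHoxc9 and 861 bp in iHoxc10. A 997 bp region over its exons, beginning 39 bp inside the gene, held 997 bp in EBs, 361 bp in progenitors, 298 bp in no Dox, 187 bp in iHoxc6, 91 bp in iHoxc9 and 257 bp in iHoxc10. EBs were thus highest on both measures and iHoxc9 lowest. In iHoxc10 a 546 bp region 13.1 kb downstream, in an intron of Wdr93, held 544 bp, against 157 to 362 bp in the other lists.

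Changes between pairs of lists were given as the log2 ratio of covered length with 100 bp added, and called at 2-fold among genes with a domain in either list. From EBs to progenitors, Mixl1 was called lower, with a log2 change of −2.04, which was 1 of 10 beside 9.56% of all genes, and 0 of 10 were called higher, beside 7.46%. The uncalled values ran from −0.91 (Gsc) and −0.68 (Mesp1) to 0.70 (Tbx6) and 0.71 (Foxa2), about a median of 0.09 over all genes. Gsc also passed 2-fold lower, at −1.06, when covered length was taken per Mb of each list, and 2 of 10 were then called lower, beside 11.1% of all genes. From progenitors to no Dox, 1 of 10 was called higher, again Mixl1 with 1.75, beside 5.24%, and 0 of 10 lower, beside 4.30%. With 300 bp added in place of 100 bp, Mixl1 was at 0.97 and no longer called. The medians there were 0.05 for the 10 genes and 0.15 for all genes.

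The comparisons of the 3 induced lists share the no Dox list, which covered the most sequence of all. The median log2 change over all genes was −0.24 for iHoxc6, −0.63 for iHoxc9 and −0.48 for iHoxc10, and the medians of the 10 genes were −0.23, −0.91 and −0.79. In iHoxc6, Mixl1 was called lower at −1.67, 1 of 10 beside 4.71% of all genes, and 0 of 10 were called higher, beside 2.13%. With 300 bp added, Mixl1 was at −0.94 and no longer called. In iHoxc9, 5 of 10 were called lower, beside 25.4% of all genes. They were Foxa1 at −1.16, Foxa2 at −1.19, Eomes at −1.21, Mesp1 at −1.55 and Mixl1, which was listed at 0 bp. In iHoxc10, 5 of 10 were called lower, beside 15.8%, with Foxa1 at −1.35, Foxa2 at −1.23, Sox17 at −1.13, Eomes at −1.76 and Mixl1 again at 0 bp. No gene was called higher in either, beside 0.986% in iHoxc9 and 1.04% in iHoxc10. Gata6, Gsc and Tbx6 lay between −0.23 and −0.03 in iHoxc9 and iHoxc10.

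Scaling to the covered length of the whole list ended most of these calls. Per Mb covered by each list, 1 of 10 was called lower in iHoxc9, beside 8.21% of all genes, and this was Mixl1. Foxa1 was then at −0.44, Foxa2 at −0.45, Eomes at −0.52 and Mesp1 at −0.93. In iHoxc10, 2 of 10 were called lower, beside 6.63%, Mixl1 and Eomes at −1.24, while Foxa1 was at −0.80, Foxa2 at −0.67 and Sox17 at −0.59. The median of all genes was 0.01 in both on this scale, and that of the 10 genes −0.20 and −0.26.

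**Figure D4:**
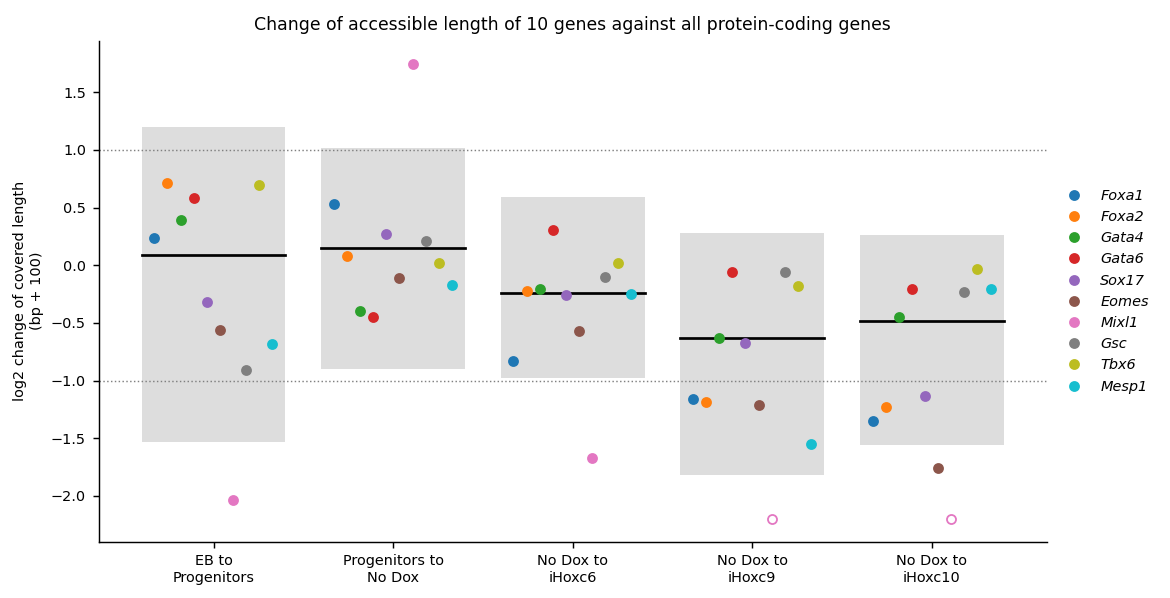
Log2 change of covered length with 100 bp added (y axis) of the 10 genes (points) in 5 pairs of lists (x axis). Grey bars run from the 5th to the 95th percentile of all protein-coding genes with a domain in either list and the black line is their median; dotted lines mark 2-fold and open points a second list at 0 bp. Mixl1 lies outside the grey bar in every pair, and Eomes also lies below it in iHoxc10, at −1.76.

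Over all 10 genes, merged regions were spread over the lists much as regions elsewhere were. All 6 lists held 29 of the 240 regions, or 12.1%, beside 11.2% of all 218562 regions. EBs alone held 46, or 19.2%, beside 21.1%, and 27 of the 46 were under 50 bp wide. Progenitors and every day 4 list but not EBs held 6, or 2.50%, beside 2.77%, of which Foxa2 had 4, Foxa1 1 and Gata4 1. An induced list but neither progenitors nor no Dox, with EBs or without, held 44, or 18.3%, beside 22.6%, and 30 of these were under 50 bp. A single list held 141 regions, or 58.8%, beside 63.7%. EBs and another list but not progenitors held 5, or 2.08%, beside 3.12%.

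Shares were above those of all regions in some other classes. Progenitors and no Dox but no induced list, with EBs or without, held 8 regions, or 3.33%, beside 1.71% of all regions. These were 2 each at Foxa1, Sox17 and Eomes and 1 each at Foxa2 and Gata4. EBs also held 5 of these 8, or 2.08% of the 240 regions, beside 0.506% of all regions. The 5 were 2 at Sox17 and 1 each at Foxa2, Gata4 and Eomes. EBs and progenitors alone held 8, or 3.33%, beside 1.61%, with 3 at Eomes, 2 at Foxa2 and 1 each at Gata6, Mixl1 and Mesp1. These classes were not among those set beforehand, and the 5 regions are part of the 8 held by progenitors and no Dox. The counts are small and have no replicate check. Of the 62 regions at least 300 bp wide, 24 or 38.7% were held by all 6 lists, beside 41.8% of all 51741 such regions.

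Short motif strings were searched on both strands in the central 300 bases of these wide regions, with no string contained in another. The forkhead string TGTTTAC was found in 5 of 62 regions, or 8.06%, beside 3.97% of all, with 2 at Foxa1, 2 at Foxa2 and 1 at Sox17. The string TTTATGG, a form bound by posterior Hox proteins, was found in 6, or 9.68%, beside 4.03%, with 2 at Sox17, 2 at Foxa2 and 1 each at Gsc and Gata4. Shares were closer for the GATA string AGATAA, in 7 or 11.3% beside 11.6%, for the T-box string GGTGTGA, in 2 or 3.23% beside 3.60%, and for the SOX string ACAATGG, in 5 or 8.06% beside 6.47%. The GLI string TGGGTGGTC, read by the effectors of Hedgehog signalling, was in 0 of 62, beside 0.400%. None of the 6 printed sequences held a match to any of these strings. The counts are small, and the strings were chosen after seeing the data. The lists that hold the matching regions were not compared, and a link to Hox induction was not tested.

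Other genes of the same programmes were read from fixed lists. Of all protein-coding genes, 69.1% had a promoter domain in EBs, 66.5% in progenitors and 65.4% in no Dox. In iHoxc6, iHoxc9 and iHoxc10 it was 65.7%, 62.9% and 62.5%. Of 15 further genes of streak and mesoderm, 13 had a promoter domain in EBs, 11 in progenitors and no Dox, and 10 in each induced list. Those not open in all 6 lists were T, Msgn1, Evx1, Hand1 and Meox1. The promoter of T, the T-box factor Brachyury that acts with Eomes in the streak, had a domain in EBs and progenitors and at no day 4 list, and those of Msgn1 and Hand1 had one in EBs only. Evx1 had one in no Dox only and Meox1 in no list. Eomes, Gsc and Mesp1 kept a promoter domain in all 6 lists, as 10 of the 15 genes did. The length within the promoter was small in some lists, at 59 bp for Eomes and 54 bp for Gsc in iHoxc10. For Mesp1 it was 91 bp in iHoxc9. Of 12 further endoderm genes, 7 had a promoter domain in EBs, 9 in progenitors, 7 in no Dox and 8 in each induced list, and Hnf4a, Afp and Apoa1 had none in any list. Cer1 had one in progenitors only, and Ttr in progenitors and the 3 induced lists. A list of 9 genes was taken for the floor plate, where Foxa2 is also induced. Of these 9, 7 had a promoter domain in EBs, 8 in progenitors, 9 in no Dox and iHoxc6, 6 in iHoxc9 and 7 in iHoxc10. Shh, the Hedgehog ligand of the floor plate, was without a promoter domain in EBs, iHoxc9 and iHoxc10, and its domains covered 2275 bp in EBs, 3259 bp in progenitors, 4593 bp in no Dox, 3820 bp in iHoxc6, 865 bp in iHoxc9 and 2510 bp in iHoxc10. Nkx2-9 lacked one in iHoxc9, Corin in progenitors and iHoxc9, and Ferd3l in EBs and iHoxc10. Whether floor plate cells contribute to the Foxa2 domains was not tested.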

How the data were processed

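ATAC-seq was performed in 12 samples of mouse embryonic stem cell cultures, 2 in each of 6 groups taken from the labels. Per the study's methods, the authors mapped paired-end reads to mm10 with Bowtie2 (2.2.2) and called accessible domains with DomainFinder of the SeqCode project. The submitters' processing notes also name Picard 2.8.2, without its role. The deposited lists, 1 per group from both replicates, give chromosome, start and end of each domain in bp, with no height, count or p-value. Depth is therefore unknown, and no test was possible. The start column was taken to follow BED, which leaves positions uncertain by 1 bp. All list ends lay inside the chromosomes of GRCm38.

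Autosomal, X and Y domains were assigned to GENCODE M21 genes, domains of the 6 lists were merged at an overlap of at least 1 bp, and sequences were read from the GRCm38 genome of RefSeq, with Python 3.11.15, NumPy 2.4.6, SciPy 1.17.1, pysam 0.24.0, samtools 1.23.1 and Matplotlib 3.10.9. Assignment and merging were tested on simulated intervals, where 0 of 415 checks differed from a direct count. Covered length was compared as log2(bp + 100). All 10 genes are described; other genes are named where their promoter call differed from most of their list. The genes and lists were chosen with earlier results of these data known. Chosen after seeing the data were the motif strings, the CpG description, the 50 bp promoter count, the widths for printing a promoter sequence (at least 400 bp), the added alternative by row order, and the individual regions described. Regions of a single list, of progenitors and no Dox without an induced list, and of EBs and progenitors alone were not classes set beforehand. Printed sequences were cut to at most 300 bases and to stretches with no more than 30 bases of untranslated sequence. Alternatives varied domain width, list length, promoter width, assignment, scaling and pseudocount.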

Additional observations from a re-analysis of the deposited data

How the results depend on the processing

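No paired analysis was possible because each list was made from both samples of a group and holds no value per replicate, and for the same reason no replicate could be left out. Of 241 values recomputed under an alternative, 195 stayed within 1.5 times the reported value. The counts of genes with a promoter domain all did, although some fell. With domains of at least 150 bp, the iHoxc10 count was 6, without Gata4, Eomes, Mixl1 and Gsc, and the iHoxc9 count was 7. With the 5 prime end of each gene as its only TSS, the counts were 7 in iHoxc9 and 7 in iHoxc10, without Gata4, Sox17 and Mixl1. Gata4 then had no promoter domain in any list. The share of all genes with a promoter domain was not computed under either setting, so these falls cannot be called particular to the 10 genes. Of 104 recomputed log2 changes of called genes, 0 turned direction and 10 fell under 2-fold.

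Domain numbers of the 10 genes are given in the order EB, progenitors, no Dox, iHoxc6, iHoxc9, iHoxc10. With domains of at least 150 bp these were 47, 57, 61, 50, 32 and 32, and with non-coding genes also claiming the nearest domain 45, 43, 40, 44, 28 and 27, covering 14801, 12416, 13610, 11379, 7868 and 6065 bp. With domains of at least 50 bp there were 70 in EBs and 78 in progenitors. At equal list length by width there were 61, 76 and, in iHoxc6, 71, and by row order in the files 58, 72 and 71. The rows run from wide to narrow domains in every list, for a reason not given in the sources used here.

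Regions held by all 6 lists numbered 10 from domains of at least 150 bp, and 4 when a list had to cover at least 50% of the region, where 10 were held by EBs and another list but not progenitors. Regions of EBs only numbered 20 from domains of at least 50 bp and 14 from at least 150 bp or at either equal length. Those of an induced list but neither progenitors nor no Dox numbered 19 from domains of at least 50 bp, 9 from at least 150 bp and 26 by row order. Those of progenitors and no Dox but no induced list numbered 4 from domains of at least 150 bp and 5 by row order. With narrow domains removed, fewer domains enter by construction; the other causes were not tested.

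Called genes from EBs to progenitors were 1 higher and 2 lower with domains of at least 150 bp, and 2 lower by row order or per Mb. With a pseudocount of 300 bp, 0 were higher from progenitors to no Dox and 0 lower in iHoxc6, where Mixl1 was at 0.97 and −0.94. Per Mb of the list, 1 was lower in iHoxc9 and 2 in iHoxc10. With each list cut to as many domains as the shortest held, 5 were lower in iHoxc9 and 5 in iHoxc10 by width, and 4 and 5 by row order, where Eomes in iHoxc9 was at −0.94. The share of all genes called was computed for the main and per Mb settings only. The other counts of called genes thus have no background to be read against. Depth is unknown, and its part in these values was not tested.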
